A study of Danio rerio with 36 samples.

Results

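A set of 127 genes out of the 31540 measured was high in columns labelled as GFP cells (MG) of the zebrafish eye at 48hpf and low in MG at each of the 4 stages from 72hpf on. The genes were chosen by measured values. Their mean log2 CPM (reads of the gene per 1e+06 reads of the column) in 48hpf MG replicates 1 and 2 was 5 or more and exceeded the mean of MG at 72, 96, 120, and 192hpf by 3 or more each time. In addition, the non-GFP cells (C) exceeded MG by less than 2 on the log2 scale at 1 or more of these 4 stages, and 7 identifiers were left out. They are called the early-high genes here.

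Whole eyes of embryos and larvae that carry the transgene Tg(GFAP:GFP) were dissociated at 48, 60, 72, 96, 120, and 192hpf, and the cells were sorted by GFP. GFP in this line is driven by regulatory sequence of *gfap*, a gene of astrocytes and Müller glia that zebrafish neural progenitors also use, so a GFP cell is not a glial cell by that alone. All 12 groups carry the transgene, had no other allele or agent in their labels apart from the phenylthiourea that the study's methods give to all embryos against pigment, and came from eyes pooled within a stage. MG and C at each of the 6 stages had 3 replicates. C was what the GFP gate left of the whole eye, and with it cells outside the retina.

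In the zebrafish eye, retinal progenitors divide until most neurons and glia are born, and the Müller glia are among the last cells to differentiate. Dividing cells make the MCM helicase that opens DNA for replication, the kinesins and kinases of the spindle, and the condensins that pack chromosomes, and stop making them when they leave the cycle. Notch receptors, read out by Her repressors, keep progenitors from becoming neurons and later favour the glial fate. The whole eye also holds epidermis and cornea with their keratins, and a mesenchyme around the eye that lays down collagen.

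Of the 127 genes, 119 had a symbol, taken from the study's tables or the reference. Symbols are spelled as given there, and those in capitals carry the spelling of the human gene. By the 12 pathway lists compared, 14 of the genes belong to mitosis, 7 each to DNA replication, chromatin, and the Notch pathway, 5 to the cytoskeleton and adhesion, and 3 to the regulators of the cell cycle. In all, 50 of the 127 were in a pathway list and 9 in a list of cell type markers.

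The study designed pairs of guide RNAs against 3 of the 127 genes for its CRISPR screens of Müller glia shape, and these designed sequences are shown because they tie single genes of the set to the screens. They are *tuba8l3*, an alpha-tubulin, *itga5*, the alpha subunit of a fibronectin receptor, and *MMP2*, a protease of the extracellular matrix. For *itga5* and *MMP2* the capitals mark the PAM that Cas9 needs beside its target, and the *tuba8l3* guides are given without one.
tuba8l3 guide 1: tatgcatgtcggccaagctg
tuba8l3 guide 2: ggacttcttgccatagtcga
itga5 guide 1: gggcaaggctactgtcaaggTGG
itga5 guide 2: ggacccagcggtagctacttCGG
MMP2 guide 1: gggaagcaagaaactgcacgAGG
MMP2 guide 2: ggggaactttatgatgggtgAGG

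The 3 columns of a group were not separate libraries as far as the values show. In 9 of the 12 groups, replicates 1 and 2 differed by 0.0685 to 0.160 of the variance that sampling of reads gives (median chi-square ratio over genes), and either differed from replicate 3 by 0.888 to 1.03. The exceptions were 60hpf MG, whose 3 columns differed by 1.15 to 4.96, and both groups of 48hpf. So each group was taken as 1 library, differences have no replicate check, and no p-values are given for them. A gene was called lower or higher where its group means of log2 CPM differed at least 2-fold. A mean under 3 reads of the shallowest of the columns compared was first set to that floor. Outside 60hpf MG the columns held 1311849 to 8889893 reads on genes. Those of 60hpf MG were shallow, with 63463 to 90846 reads, and 62 to 66 of the 127 genes had a read there, against 103 to 127 in the other columns.

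At 48hpf, replicate 3 stood apart in both fractions. The library labelled 48hpf MG replicate 3 differed from replicates 1 and 2 by a ratio of 151 to 152 and from 72hpf MG by 0.859 to 0.944. The library labelled 48hpf C replicate 3 differed from its own replicates by 6.76 to 6.77 and from 48hpf MG replicates 1 and 2 by 0.679 to 0.991. All 127 genes were at least 2-fold lower in 48hpf MG replicate 3 than in 48hpf C replicate 3, with a median log2 difference of -6.26. As these 2 columns resemble 72hpf MG and the 48hpf MG columns of the choice, this count follows from the choice. It is a description only, and the share of all genes was not computed. These ratios put the labels of the 48hpf columns in doubt, and which of them hold GFP cells was not tested. Below, 48hpf MG and 48hpf C mean the columns so labelled. Replicates 1 and 2 stand for 48hpf, as in the choice of the genes, and with all 3 columns of 48hpf MG in the rule, 3 genes would have been chosen.

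Markers of several tissues had their highest MG level at 48hpf, leaving 60hpf aside. They were 4 of the 15 retinal progenitor markers with a read, 7 of 12 ganglion cell markers, 11 of 15 surface ectoderm markers, 10 of 10 markers of periocular mesenchyme, 7 of 9 muscle markers, and 7 of 10 markers of microglia. So were 5 of 6 erythrocyte, 4 of 6 endothelium, and 4 of 16 Müller glia markers. At the other end were 0 of 10 rod, 1 of 7 cone, 0 of 7 bipolar cell, 1 of 9 amacrine cell, and 0 of 10 lens markers. The share of all genes with this peak was not computed, and tissue content was not tested. None of the 17 retinal progenitor markers matched is in the set, where 3 met the conditions on level and fall and missed only that on C. The Müller glia markers, with the early-high genes taken out, summed to 732 to 748 CPM in 48hpf MG, against 794 to 805 CPM in 48hpf C. This sum turned on a *SLC1A2* gene, a glutamate transporter (ENSDARG00000102453, mean 115 CPM in 48hpf MG, against 329 CPM in 48hpf C). The reporter's own gene *gfap* was low in both, with a mean of 4.65 CPM in 48hpf MG, against 6.46 CPM in 48hpf C. Over the 13 markers above the floor the median log2 difference of 48hpf MG minus 48hpf C was 0.35, with 1 higher and 1 lower. They summed to 4320 to 4378 CPM in 72hpf MG, against 457 to 461 CPM in 72hpf C.

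By choice, the genes fell in MG, and these values are a description only. Their median log2 CPM was 6.94 in MG at 48hpf and then 1.24, 2.49, -0.335, and 2.80 at 72, 96, 120, and 192hpf. The median fall was 6.13, 4.26, 7.68, and 3.90 on the log2 scale at these stages. The smallest of the 4 falls was that at 192hpf for 60 genes and that at 96hpf for 37. Large falls were common at some stages, since of the 4006 genes with a log2 CPM of 5 or more in 48hpf MG, 35.8, 10.9, 48.7, and 8.71% fell by 3 or more at 72, 96, 120, and 192hpf.

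**Figure D1:**
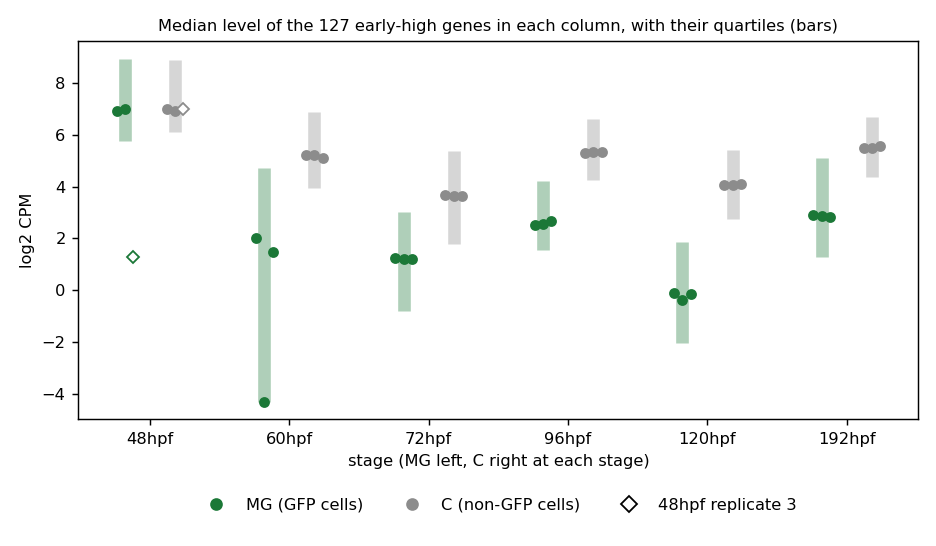
Median log2 CPM (y axis) of the 127 early-high genes in each column of MG (left) and C (right) by stage in hpf (x axis), with bars from the lower to the upper quartile of the genes and open diamonds for 48hpf replicate 3. In MG the median stood at 6.94 at 48hpf and at -0.335 to 2.80 from 72hpf on, and in C at 6.94 at 48hpf and 5.17 at 60hpf. Of the shallow 60hpf MG columns, 1 lies at the value of a gene with no read.

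Of the 228 genes that met the conditions on level and fall, 101 failed that on C, and 2 of these were among the identifiers left out. The 127 met it at 72hpf (68 genes), 96hpf (42), 120hpf (29), or 192hpf (62), most of them (71) at 1 stage only and 1 gene at all 4. Just inside the level of 5 were *CYP26B1* (5.01), *SPC25* (5.03), and *ttn.2* (5.03), and just outside *DLX2* (4.94), *lgals1l1* (4.91), and *TGM2* (4.89). Just inside the smallest fall of 3 were *zgc:153115* (3.01), *NCAPG2* (3.02), and *dpysl3* (3.02), and just outside *tmsb* (2.998), *anln* (2.99), and *RBBP4* (2.99). For C minus MG, *FZD7* (1.996), *SPC25* (1.99), and *tacc3* (1.98) lay just inside 2, and *fen1* (2.004), *troap* (2.01), and *POLA2* (2.01) just outside.

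The choice did not use C at 48 or 60hpf, and the change in the non-GFP cells between these stages was compared next. This comparison is not independent of the choice. In 48hpf C, 109 of the 127 genes lay within 2-fold of the 48hpf MG columns for which they were chosen as high. Most genes did, since of 13945 genes 2.85% were at least 2-fold higher and 18.0% lower in 48hpf MG. The counts are therefore a description. The early-high genes were lower there too. Of the 127 genes, 98 were at least 2-fold lower in 60hpf C than in 48hpf C and none was higher, where 18.6% of all 14671 genes above the floor were lower and 20.1% higher. The median log2 difference was -1.79 (quartiles -2.80 and -1.17) over the 127 genes and 0.05 over all genes. Among the 4973 genes with a log2 CPM of 5 or more in 48hpf C, 21.0% were lower, and of the 120 early-high genes among these 95 were. With all 3 columns of 48hpf C in the mean the count was 103 in place of 98 (15.0% of all genes). That count is a description only as well, and stands closer still to the choice. Replicate 3 of 48hpf C differed from the 48hpf MG columns of the choice by no more than read sampling (ratios 0.679 to 0.991). The 99 genes that met only the conditions on level and fall gave 75 lower and 2 higher, with a median of -1.61. In a sorted bulk fraction, fewer cells of a type and less RNA in each cell cannot be told apart.

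**Figure D2:**
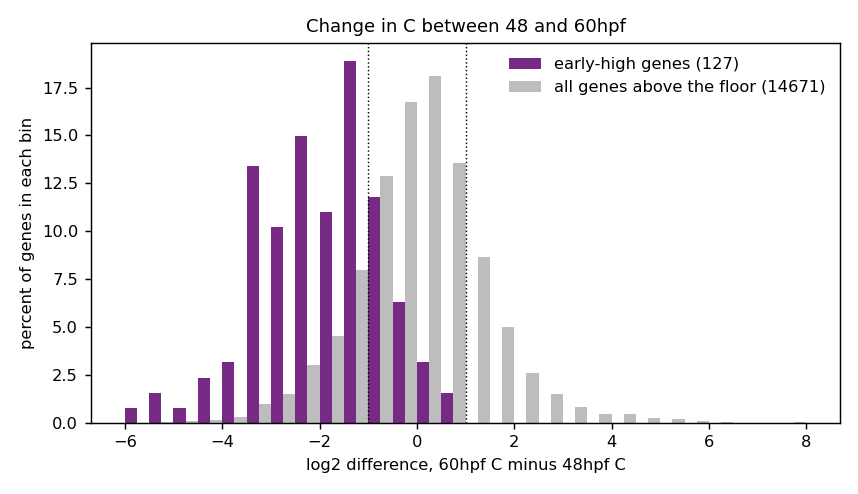
Percent of genes (y axis) by log2 difference of 60hpf C minus 48hpf C (x axis, in bins of 0.5) for the 127 early-high genes and for all 14671 genes above the floor, with dotted lines at the 2-fold limits of -1 and 1. The early-high genes lie around a median of -1.79 and all genes around 0.05.

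Genes of DNA replication and mitosis fell by about as much in the set as outside it. *MCM5*, a subunit of the replicative helicase, had 126, 123, and 130.2 CPM in the 60hpf C columns, against 288 and 285 CPM in 48hpf C (log2 difference -1.18). *MCM6*, another subunit, had 117, 116, and 119 CPM in 60hpf C, against 325 and 317 CPM in 48hpf C (-1.45). In both, every 60hpf column lay below every 48hpf column. As the columns of a group act as 1 library, this is no replicate check. *RPA2*, which coats single-stranded DNA, and *orc5*, of the complex that marks origins, differed by -0.70 and -0.38 on the log2 scale and were not called. Of the 7 replication genes of the set 5 were lower with a median log2 difference of -1.18, and of the 37 replication genes outside it 20 were lower and 2 higher with a median of -1.13.

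Among the 14 mitosis genes of the set, 9 were lower, with a median log2 difference of -1.37. *kif11*, the kinesin that pushes spindle poles apart, had 137, 137, and 138 CPM in 60hpf C, against 438 and 417 CPM in 48hpf C (-1.64). *AURKB*, a kinase that corrects chromosome attachment, had 43.8, 44.5, and 52.0 CPM in 60hpf C, against 126 and 119.9 CPM in 48hpf C (-1.40). *SMC4*, a condensin subunit, had 67.6, 69.4, and 63.2 CPM in 60hpf C, against 192 and 185 CPM in 48hpf C (-1.50). The groups of columns do not overlap for these 3 genes, which is no replicate check either. *KIF23*, a kinesin of the midzone, stayed just inside the limit at -0.97. Outside the set, 38 of 70 mitosis genes were lower and none was higher, with a median of -1.11. DNA repair (17 of 31 genes lower, 1 higher) and nucleotide synthesis (11 of 26 lower, 2 higher) held no early-high gene.

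The 3 cell cycle regulators were all lower. *MYBL1*, a transcription factor of the Myb family, had 63.2, 62.2, and 61.3 CPM in 60hpf C, against 314 and 313 CPM in 48hpf C (log2 difference -2.33). *E2F8*, a repressor of the E2F family, had 20.2, 20.6, and 21.6 CPM in 60hpf C, against 72.5 and 71.3 CPM in 48hpf C (-1.79). *INSM1*, a zinc finger factor of newborn neurons and neuroendocrine cells, had 102, 101, and 97.5 CPM in 60hpf C, against 263 and 265 CPM in 48hpf C (-1.40). Of the 44 regulators outside the set, 23 were lower and none was higher, with a median of -1.03.

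The Notch genes had the lowest median of the lists with 3 or more genes in the set. All 7 were lower, with a median log2 difference of -3.03, against 15 of 24 Notch genes outside it with a median of -1.26. The 7 include 5 neighbouring *her4* genes with log2 differences from -3.29 to -2.99. The count and the median thus weigh 1 locus 5 times. *her4.2*, a repressor that Notch switches on, had 302, 298, and 281 CPM in 60hpf C, against 2334 and 2327 CPM in 48hpf C (log2 difference -2.99). *her4.1*, also a marker of Müller glia, had 42.2, 37.2, and 44.0 CPM in 60hpf C, against 389 and 381 CPM in 48hpf C (-3.23). *notch2*, a receptor, had 9.53, 9.34, and 9.40 CPM in 60hpf C, against 76.4 and 73.3 CPM in 48hpf C (-2.98), and is named after its values were seen. *her13*, another Her repressor, had 13.5, 13.0, and 11.7 CPM in 60hpf C, against 66.8 and 67.8 CPM in 48hpf C (-2.40). The groups of columns do not overlap in any of these, which again is no replicate check. The 5 *her4* genes are near-identical neighbours on chromosome 23 of the reference (assembly GRCz12tu). At most 2 protein-coding genes lie between the pairs other than *her4.2* with *her4.5*. The values of the 5 genes hold parts of reads in 34 of 34, 36 of 36, 36 of 36, 35 of 36, and 35 of 35 columns with a read for *her4.1* to *her4.5*, as reads split between genes leave them, so the share of each copy is uncertain.

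**Figure D3:**
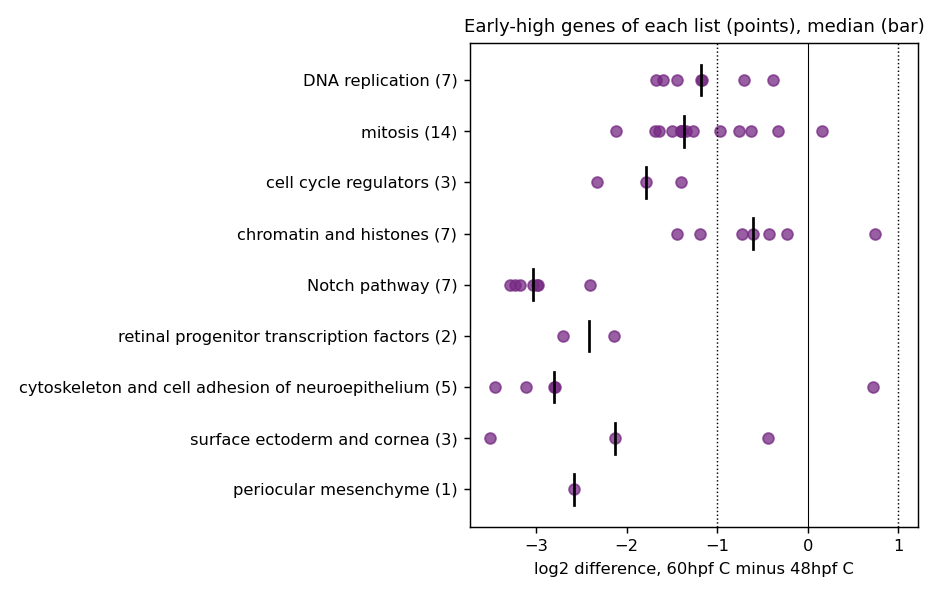
Log2 difference of 60hpf C minus 48hpf C (x axis) of the early-high genes in 9 of the lists (rows), with a point for each gene, a bar at the median, and dotted lines at the 2-fold limits. The 7 Notch genes lie around -3.03, the 7 replication genes around -1.18, and the 7 chromatin genes around -0.60.

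Progenitor factors, a neurogenic factor, and signalling genes of the eye field in the set also fell. Both *SOX11* genes, which encode factors of progenitors and young neurons, were lower. The copy ENSDARG00000077811 had 162, 164, and 156 CPM in 60hpf C, against 712 and 699 CPM in 48hpf C (log2 difference -2.13), and ENSDARG00000095743 had 99.8, 99.9, and 94.7 CPM in 60hpf C, against 641 and 640.2 CPM in 48hpf C (-2.71). *onecut1*, a factor of horizontal and ganglion cell precursors, had 70.7, 72.7, and 73.6 CPM in 60hpf C, against 578 and 588 CPM in 48hpf C (-3.01). *FZD7*, a Wnt receptor, and *FGFRL1*, a receptor of the FGF family without a kinase, differed by -2.44 and -3.00. *CYP26B1*, which breaks down retinoic acid and is in none of the lists, differed by -3.01. Of the 52 progenitor factors outside the set, 23 were lower and 7 higher. Of the 53 signalling genes of the eye field above the floor, members included, 37 were lower and 3 higher, with a median of -1.78. The 44 neurogenic genes above the floor did not share this, with 17 lower, 16 higher, and a median of 0.11. Nor did the 15 retinal progenitor markers above the floor, with 3 lower, 2 higher, and a median of -0.17. Of 11 ganglion cell markers, members included, 2 were lower and 1 higher, with a median of 0.26.

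Chromatin proteins and beta-tubulins of the set stayed closer to their 48hpf levels in C. *hmga1a*, an architectural protein of open chromatin, had 5811, 5786, and 5810 CPM in 60hpf C, against 9605 and 9604 CPM in 48hpf C (log2 difference -0.73, not called). *HMGN2*, which binds nucleosomes, had 7773, 7733, and 7577 CPM in 60hpf C, against 9017 and 9040 CPM in 48hpf C (-0.23). *hmgb2b*, a DNA-bending protein of dividing cells, was called, with 1555, 1546, and 1613 CPM in 60hpf C, against 4255 and 4310 CPM in 48hpf C (-1.45). It and *HELLS*, a remodeller of heterochromatin (-1.19), were the 2 of 7 chromatin genes that were lower. The median log2 difference of the 7 was -0.60. Outside the set, 6 of 34 chromatin genes were lower and 2 higher, with a median of -0.49. The highest differences of the set were those of *h3f3a*, a histone H3.3 gene, with 1031, 1075, and 996 CPM in 60hpf C, against 614 and 617 CPM in 48hpf C (0.75), and *tubb5*, a beta-tubulin, with 748, 739, and 768 CPM in 60hpf C, against 452 and 460.0 CPM in 48hpf C (0.72). *tubb2b*, another beta-tubulin, and *hnrnpaba*, an RNA-binding protein, stood at 0.16 and 0.15. Of the genes with the most reads in 48hpf MG, *eef1a1l1*, an elongation factor of translation, and si:dkey-151g10.6 were called lower (-1.03 and -1.50), and *khdrbs1a*, an RNA-binding protein, was not (-0.29).

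Genes of adhesion and matrix fell, among them 2 with guides. *itga5* had 9.66, 8.97, and 9.81 CPM in 60hpf C, against 63.4 and 69.4 CPM in 48hpf C (log2 difference -2.80). *MMP2* had 30.8, 30.6, and 30.2 CPM in 60hpf C, against 124 and 118 CPM in 48hpf C (-1.99), and *tuba8l3* had 7.63, 8.57, and 12.2 CPM in 60hpf C, against 45.9 and 46.0 CPM in 48hpf C (-2.30). These last 2 were described for their guides after their values were seen. *LAMB1*, a laminin of basement membranes, *DCLK1*, a kinase bound to microtubules, and *pfn1*, a profilin that feeds actin, differed by -3.46, -2.79, and -3.11. Of the 5 cytoskeleton genes of the set 4 were lower, the exception being *tubb5*, against 33 of 72 outside it with 10 higher.

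The 5 lowest differences of all belonged to genes outside the lists. *gata3*, a zinc finger factor of the inner ear and of lymphoid cells, had 1.63, 1.48, and 1.33 CPM in 60hpf C, against 119.9 and 111 CPM in 48hpf C, and with 60hpf C under the floor of 2.29 CPM it fell by at least 5.62 on the log2 scale. The 2 *OTP* genes, which encode a homeodomain factor of the hypothalamus, were also under the floor in 60hpf C. ENSDARG00000014201 had 1.04, 0.886, and 1.92 CPM there, against 87.3 and 89.2 CPM in 48hpf C (log2 difference -5.24 as a bound). ENSDARG00000058379 had 0.889, 0.886, and 1.33 CPM in 60hpf C, against 85.8 and 86.9 CPM in 48hpf C (-5.21 as a bound). *PPP1R3B*, which targets a phosphatase to glycogen, and *ttn.2*, a titin of muscle, had bounds of -4.31 and -4.91. *hapln1a*, a link protein of the hyaluronan matrix, is also outside the lists but is named for its fall in MG and is not among these 5. It had 72.2, 73.1, and 70.0 CPM in 60hpf C, against 755 and 774 CPM in 48hpf C (-3.41).

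Genes of epidermis, mesenchyme, and muscle fell as well, among them 2 of the 3 surface ectoderm markers of the set. The exception was *icn* (log2 difference -0.44, not called). *krt4*, a keratin of the surface epidermis, had 241, 241, and 251 CPM in 60hpf C, against 2772 and 2784 CPM in 48hpf C (log2 difference -3.51), and *krt5*, a keratin of basal epidermis, had 41.4, 43.9, and 42.6 CPM in 60hpf C, against 195 and 179 CPM in 48hpf C (-2.13). *COL1A2*, a chain of type I collagen, had 103, 104, and 97.1 CPM in 60hpf C, against 607 and 610.2 CPM in 48hpf C (-2.59). *FLI1*, a factor of endothelium and neural crest, had 5.77, 6.12, and 5.62 CPM in 60hpf C, against 81.4 and 77.4 CPM in 48hpf C (-3.75), and *actc1a*, a muscle actin, had 16.7, 18.1, and 20.3 CPM in 60hpf C, against 178 and 188 CPM in 48hpf C (-3.32). Marker lists of epidermis, mesenchyme, and muscle were lower in sum. The surface ectoderm markers outside the set summed to 162 to 168 CPM in 60hpf C, against 666 to 686 CPM in 48hpf C, those of periocular mesenchyme to 236 to 247 CPM in 60hpf C, against 1643 to 1660 CPM in 48hpf C, and those of muscle to 48.6 to 51.5 CPM in 60hpf C, against 334 to 337 CPM in 48hpf C. Outside the set, 6 of 10, 9 of 9, and 7 of 9 of their genes above the floor were lower. Endothelium markers did not go one way. Outside the set they summed to 66.7 to 69.6 CPM in 60hpf C, against 88.4 to 88.8 CPM in 48hpf C, with 2 of 3 lower and *cdh5*, a cadherin of vessels, higher (mean 50.9 CPM in 60hpf C, against 8.56 CPM in 48hpf C). Markers of rods (6 of 8), cones (4 of 6), lens (7 of 8), and erythrocytes (3 of 6) were higher in 60hpf C than in 48hpf C, with none lower. Those of microglia were lower in 3 of 6 with none higher. Of 7 markers of the retinal pigment epithelium, 2 were lower and 2 higher. The part of these tissues in the fall of the set was not tested.

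In the sorted cells at 60hpf the depth left 58 of the 127 genes above the floor of 47.3 CPM in either fraction. Of these, 32 were at least 2-fold lower in 60hpf MG than in 60hpf C and none was higher, where 28.8% of the 4626 genes above the floor were lower and 8.15% higher. The median log2 difference was -1.09 over the 58 genes and -0.49 over all genes. As the mean log2 CPM of 32 of the 58 lay under the floor in MG, many differences are bounds on the difference of these means. Such a mean can be pulled under the floor by 1 column with no read. *HMGN2* had 551, 804, and 550.4 CPM in 60hpf MG, against 7773, 7733, and 7577 CPM in 60hpf C (log2 difference -3.62). *tubb5* had 96.9, 142, and 88.1 CPM in 60hpf MG, against 748, 739, and 768 CPM in 60hpf C (-2.82). *her4.2* had 42.4, 55.1, and 85.3 CPM in 60hpf MG, against 302, 298, and 281 CPM in 60hpf C (-2.33), and *hmga1a* had 2223, 2726, and 1899 CPM in 60hpf MG, against 5811, 5786, and 5810 CPM in 60hpf C (-1.36). No MG column reached a C column in these 4 genes, where each group was taken as 1 library. *MCM5* had 0, 0, and 11.0 CPM in 60hpf MG, under the floor, against 126, 123, and 130.2 CPM in 60hpf C, which puts the log2 difference at -1.42 or below. The count turned on the depth, with 14 genes lower at a floor of 10 reads, where 20.7% of the 1473 genes above that floor were lower. How many of the 127 lay above that floor was not counted, so the 14 cannot be set against this share. It also turned on the scale, with 17 lower once the median of all genes was taken off (15.4% of all genes).

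At 48hpf the 2 fractions held the early-high genes at like levels, with a median log2 CPM of 6.94 in MG and 6.94 in C. As the choice used MG at this stage, these values are a description. Of the 127 genes, 13 were at least 2-fold higher and 5 lower in 48hpf MG than in 48hpf C, where 2.85% of 13945 genes were higher and 18.0% lower. The scaling bears on these counts. TMM factors, which scale to the bulk of genes, moved the median of all genes by 0.45 on the log2 scale, to 7.64% higher and 6.86% lower, and gave 26 of the 127 higher and 0 lower. *tubb5* had 1419 and 1420 CPM in 48hpf MG, against 452 and 460.0 CPM in 48hpf C (log2 difference 1.64). *hmga1a* had 22245 and 21975 CPM in 48hpf MG, against 9605 and 9604 CPM in 48hpf C (1.20). *krt5* had 429 and 457 CPM in 48hpf MG, against 195 and 179 CPM in 48hpf C (1.25). Others were *h3f3a* (1.58), *tuba8l3* (1.52), and *tuba8l5* (1.48) among the higher and *gata3* (-1.40), *DCLK1* (-1.33), and *ttn.2* (-1.11) among the lower. Surface ectoderm markers outside the set summed to 1311 to 1330 CPM in 48hpf MG, against 666 to 686 CPM in 48hpf C, and their part in the keratin values was not tested.

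From 72hpf on the genes followed a saw-tooth course in C that other genes shared. Their median log2 CPM in C was 6.94, 5.17, 3.65, 5.29, 4.07, and 5.52 at 48, 60, 72, 96, 120, and 192hpf, and 93 of the 127 were lower at 72hpf than at 96hpf and lower at 120hpf than at 96 and 192hpf. In MG 80 genes had this order. Both counts compared group means with no floor and no least difference, and the share of all genes with this order was not computed. In MG the median log2 CPM of the genes was -0.335 at 120hpf, where small read counts set the order. Genes with a log2 CPM of 5 or more in 48hpf MG had C medians of 5.02, 6.26, 5.08, and 6.16 at 72, 96, 120, and 192hpf. With TMM factors the C medians of the early-high genes at these stages were 4.33, 4.92, 4.44, and 5.01. The late C values entered the choice only through C minus MG, and they are given as a description. Against 48hpf C, 124 genes were at least 2-fold lower in 72hpf C, where 50.9% of all genes were, 98 in 96hpf C (18.4%), 119 in 120hpf C (46.8%), and 89 in 192hpf C (16.0%). The median log2 differences to 48hpf C at these stages were -3.73, -1.74, -3.32, and -1.59 for the early-high genes and -1.05, -0.02, -0.87, and 0.06 for all genes. With TMM factors 27.7% of all genes were lower at 72hpf and 30.3% at 120hpf, as the median of all genes moved by 0.92 and 0.69, and of the early-high genes 107 and 104. The steps between stages touched most genes measured. Of the 127, 93 were higher in 96hpf C than in 72hpf C (56.6% of all genes), 80 were lower in 120hpf C than in 96hpf C (49.5%), and 76 were higher in 192hpf C than in 120hpf C (52.7%).

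**Figure D4:**
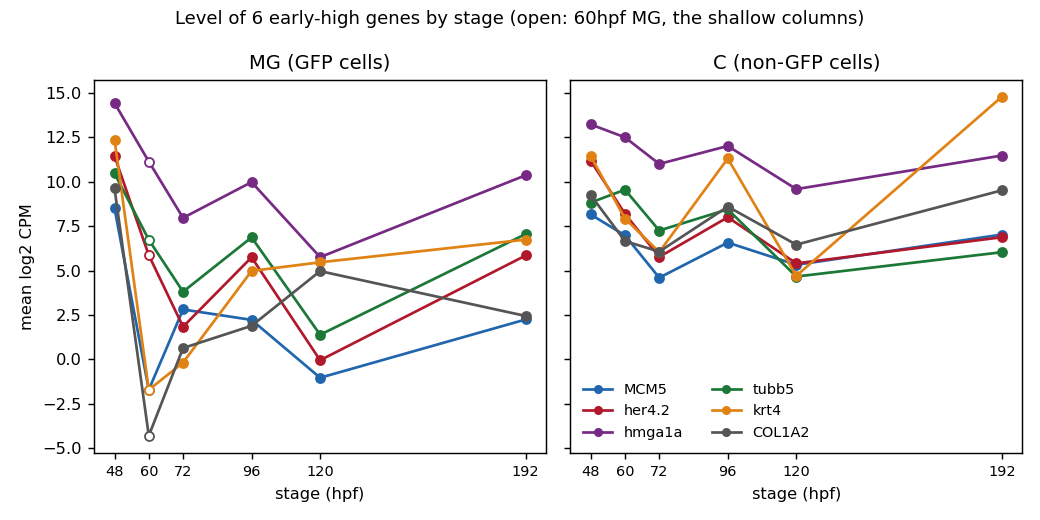
Mean log2 CPM (y axis) of 6 early-high genes in MG (left) and C (right) by stage in hpf (x axis), with the columns of a stage averaged, replicates 1 and 2 for 48hpf, and open symbols for the shallow 60hpf MG columns, where a gene with no read sits at the value of the prior. *MCM5*, *her4.2*, *hmga1a*, and *tubb5* end below their 48hpf level in C, *COL1A2* ends near it, and *krt4* ends above it.

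A few genes ended higher in C. At 192hpf 6 of the 127 were at least 2-fold higher in C than in 48hpf C, where 24.8% of all genes were. They were *krt5*, *icn*, *krt4*, *pfn1*, *krt18b*, and *ca4a*. *krt4* had 28328, 28205, and 28518 CPM in 192hpf C, against 2772 and 2784 CPM in 48hpf C (log2 difference 3.35), and *krt5* had 12704, 12580, and 13076 CPM in 192hpf C, against 195 and 179 CPM in 48hpf C (6.10). *icn*, a calcium-binding protein of the S100 family in fish, had 376, 379, and 347 CPM in 192hpf C, against 29.6 and 32.4 CPM in 48hpf C (3.57). *pfn1* had 408, 409.9, and 407 CPM in 192hpf C, against 55.2 and 56.9 CPM in 48hpf C (2.86). Surface ectoderm markers outside the set moved with them, to 23826 to 24046 CPM in 192hpf C, and their part was not tested. *COL1A2* had 729.5, 744, and 730.1 CPM in 192hpf C, against 607 and 610.2 CPM in 48hpf C (0.27, not called).

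Late C held most of the early-high genes above late MG. This too is a description, since the choice held C minus MG below 2 at 1 or more of these stages and MG low at all of them. Among genes above the floor, 2-fold lower levels in MG were found for 91 at 72hpf, where 28.6% of all genes had them, 122 at 96hpf (34.9%), 107 at 120hpf (39.4%), and 102 at 192hpf (27.5%). The median log2 differences of MG minus C were -1.80, -2.40, -3.42, and -2.03. *MCM5* had 3.87, 3.78, and 7.12 CPM in 192hpf MG, against 131, 131, and 130.1 CPM in 192hpf C (log2 difference -4.78). *her4.2* was closer, with 60.6, 57.2, and 55.6 CPM in 192hpf MG, against 117, 120.1, and 117 CPM in 192hpf C (-1.03). *itga5* had 1.03, 0.946, and 0.979 CPM in 192hpf MG, against 14.8, 15.0, and 14.0 CPM in 192hpf C (-3.82). *krt4* had 109.8, 108, and 104 CPM in 192hpf MG, against 28328, 28205, and 28518 CPM in 192hpf C (-8.04).

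Within MG, the genes reached different late levels. *hmga1a* had 248, 247, and 258 CPM in MG at 72hpf, 1025, 1002, and 1009 CPM at 96hpf, 56.1, 50.7, and 55.7 CPM at 120hpf, and 1322, 1333, and 1318 CPM at 192hpf. *kif11* had 23.5, 24.7, and 22.2 CPM in MG at 72hpf, 22.6, 21.6, and 27.9 CPM at 96hpf, 0.290, 0.530, and 0.149 CPM at 120hpf, and 37.5, 36.7, and 38.5 CPM at 192hpf. For both, the 120hpf columns were the lowest. *onecut1* had 0.465, 0.569, and 0.450 CPM in MG at 72hpf, 9.84, 8.66, and 12.5 CPM at 96hpf, 0.145, 0.144, and 0.448 CPM at 120hpf, and 19.9, 22.0, and 28.0 CPM at 192hpf. *krt4* and *COL1A2* did not have this order in MG. *krt4* had 32.0, 33.8, and 29.1 CPM at 96hpf and 45.3, 43.6, and 43.9 CPM at 120hpf, and *COL1A2* had 3.28, 3.71, and 4.04 CPM at 96hpf and 30.7, 31.5, and 31.7 CPM at 120hpf. *MMP2* had no read in any 120hpf MG column.

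The columns also allow a fit by limma, which then compares libraries, not the conditions. Over all 36 columns, with 48hpf replicate 3 as labelled, it called 32 of the 127 genes lower in 60hpf C than in 48hpf C at an adjusted p (Benjamini-Hochberg) under 0.05 with a 2-fold difference and none higher, where it called 9.83% of 18978 genes lower.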

How the data were processed

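RNA-seq was done on FACS-sorted GFP and non-GFP cells of Tg(GFAP:GFP) eyes after amplification of the RNA. The authors deposited log2 CPM of 31540 Ensembl genes in 36 columns, 3 for each of 12 groups. Their reads were trimmed with Trimmomatic, aligned with HISAT2, and counted with featureCounts, with Zv9 named as the genome in the study's methods and GRCz10 in the submitters' processing notes, which also name SAMtools, limma, DESeq2, and edgeR. Checked on the values, the deposited log2 CPM hold a prior of 0.25 read and no TMM factor. The reads were recovered from them. Low values lie on steps of 0.01 read, which points to reads split between genes, so no count test was run. Counting error is all that a floor of 3 reads covers.

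The set and the lists were chosen with earlier results of these data known. Columns of a pair were compared by chi-square, using genes that had 20 reads or more over both. As the columns of a group act as 1 library, genes were called at a 2-fold difference of group means of log2 CPM. Replicates 1 and 2 were used for 48hpf, and group means under the floor were set to it. Genes without a mean above the floor in either group were left out. limma 3.58.1 in R 4.3.3 (group means, eBayes with a trend, at least 1 CPM in 3 columns, 18978 genes, calls at an adjusted p under 0.05 and 2-fold) served as an alternative. The 2-fold calls and the limma step were tested on simulated data. Other steps used Python 3.11.15, numpy 2.4.6, pandas 2.3.3, and matplotlib 3.10.9.

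Named are genes of the set in the lists (at most 6 of a list, by level in 48hpf MG), the 10 highest in 48hpf MG, the 5 at either end of the smallest fall, of the level in late C, and of 60hpf C minus 48hpf C, and the 3 nearest to either side of a threshold. *notch2*, *MMP2*, *tuba8l3*, *tuba8l5*, *krt18b*, *col6a4a*, and si:dkey-66i24.9 lie outside this rule and were picked once their values were known. Alternatives were TMM factors, a pseudocount of 1 CPM, floors of 10 reads and none, a 4-fold call, all 3 columns of 48hpf, other thresholds of the choice, each column left out, limma with a block for the replicate number or without its filter, and, chosen after seeing the data, differences less the median of all genes. Guides were copied from the study's tables. No coordinates are given, since the reference at hand (GRCz12tu) is another build, and promoter and protein sequences were not used here.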

Additional observations from a re-analysis of the deposited data

Results flagged for a closer look

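Opposite directions of MG minus C within a gene were searched for in the 62 genes named by rule only. There they were found for *tubb5* and *STMN2*, a stathmin that frees tubulin in young neurons. Genes outside the search turned as well, such as *col6a4a* (-4.73 at 96hpf, 1.78 at 192hpf) and si:dkey-66i24.9 (-3.38 at 96hpf, 2.09 at 120hpf). The share of all genes that turn was not computed. For *tubb5* every MG column lay above every C column at 192hpf, with 130.1, 129.6, and 141 CPM in MG, against 64.6, 66.9, and 65.2 CPM in C (log2 difference 1.02), and below every C column at 72hpf (-3.44), 96hpf (-1.58), and 120hpf (-3.28). For *STMN2* the 192hpf columns held 114, 116, and 115 CPM in MG, against 55.2, 56.0, and 49.5 CPM in C (1.103), and the differences were -2.19 at 72hpf, -1.70 at 96hpf, and -4.95 at 120hpf. The difference between stages was not tested, each group is 1 library, and the choice of the genes used these means.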

How the results depend on the processing

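The set itself turned on its rule, with 378 genes at a margin of 2, 36 at a margin of 4, 226 without the condition on C, and 3 with all 3 columns of 48hpf MG, and it held 123 to 130 genes when columns were left out in turn. Genes lower in 60hpf C than in 48hpf C numbered 98, and 60 at 4-fold, 32 by limma, 31 with a replicate block, and 27 by limma without its filter (6.06, 9.83, 9.83, and 6.16% of all genes), and 98 to 99 with a column left out (0 higher each time, and 0 by limma). For 96hpf C, 98 became 51, 32, 31, and 27 under the same 4 settings (98 to 101 with a column left out), and for 192hpf C, 89 became 47, 41, 41, and 35 (87 to 90). Of all genes, 4.12, 7.64, 7.53, and 4.9% were lower in 96hpf C under these 4 settings, and 3.63, 8.09, 8.07, and 5.32% in 192hpf C. With a column left out, the ranges at 72 and 120hpf were 124 to 125 and 118 to 119. For 60hpf MG against 60hpf C, 32 lower became 14 with a floor of 10 reads, 111 with none, 10 at 4-fold, 92 by limma, 94 with the block, 90 without the filter, and 17 less the median of all genes, and ranged from 29 to 37 with a column left out. Of all genes, 20.7, 50.5, 7.22, 69.1, 69.0, 44.6, and 15.4% were lower under these 7 settings, so 92 and 94 of the 127 genes stand near the share of all genes. How many of the 127 lay above the floor of 10 reads was not counted. Higher there were 0, and 2 with no floor, 1 by limma, 1 with the block, 1 without the filter, 1 less the median, and 0 to 1 with a column left out. For 48hpf MG against 48hpf C, 13 higher became 26 by TMM, 25 less the median, and 0 at 4-fold, with all 3 columns, by limma, with the block, and without the filter (10 to 13 with a column left out). Lower there were 5, and 0 by TMM, 0 at 4-fold, 117 with all 3 columns, 9 by limma, 10 with the block, and 1 less the median (5 to 6), where all 3 columns gave 31.7% of all genes lower, limma 8%, and the block 8.26%. Single genes were rerun for the differences at 60hpf only. No 2-fold call among them changed sign, and *tubb2b*, *hnrnpaba*, and si:ch211-288g17.3, none of them called in 60hpf C minus 48hpf C, turned to -0.21, -0.02, and -0.05 with all 3 columns of 48hpf. The replicate numbers pair nothing in the labels. The columns of a group act as 1 library, apart from those of 60hpf MG and replicate 3 of both 48hpf groups. Motif searches were not run. At 60hpf, 69 of the 127 genes were under the floor in both fractions, so their differences were not detectable at this depth.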
